A study of Drosophila melanogaster with 2 samples.

Results

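The genes described here encode the enzymes and transporters that make and load neurotransmitters in Drosophila melanogaster, and the proteins that release synaptic vesicles and recover them. They are 36 of 13945 protein-coding genes, taken from a fixed list of names, and all 36 were found in the annotation. The measurement was binding of scratch (scrt), a DNA-binding protein related to Snail, by chromatin immunoprecipitation and sequencing (ChIP-seq) in whole embryos. The embryos were of pooled sexes, are described as 4 to 24 h old by their source label, and came from a transgenic line, labelled scrt-GFP, in which green fluorescent protein is fused to the C terminus of scrt. A separate age label holds an implausible number of hours and was not used. The study has 1 group of 2 biological replicates, numbered 3 and 4, and no untagged or mutant embryos were among the samples. Both libraries carry a description that calls them input controls, while the antibody field gives scrt, so they were read here as immunoprecipitations. The values are the authors' lists of peaks on assembly dm6, and the number of sequenced reads behind them is unknown. Whole embryos hold many tissues, so binding in few cells and weak binding in many cells cannot be told apart, and the lists give no expression with which to check the cells present.

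A neuron is defined in part by the transmitter it uses. Choline acetyltransferase (ChAT) and glutamic acid decarboxylase (Gad1) make acetylcholine and GABA, and ple, Ddc, Tdc2 and Tbh make dopamine, serotonin, tyramine and octopamine, after which vesicular transporters load the products into vesicles. Fusion of vesicles with the plasma membrane is carried out by SNARE proteins (nSyb, Syx1A and Snap25) under the control of synaptotagmins, complexin (cpx) and the Sec1 protein Rop, and membrane is then retrieved by endocytosis with dynamin (shi), endophilin (EndoA), synaptojanin (Synj) and adaptors. Scratch is known as a neuronal zinc-finger protein, and its relative Snail is best known as a repressor that binds the sequence CAGGTG.

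A gene was called bound if the summit of an optimal peak lay at most 1000 bp from one of its annotated transcription start sites (TSSs). The optimal peaks are the 6407 that the authors kept by irreproducible discovery rate (IDR), a measure of agreement between replicates. The sequences around summits of 3 bound members, Csp, Rop and ple, and around 3 summits inside transmitter genes, are shown first, as examples of binding near a start and inside a gene; they are not the strongest in order, since Vmat and Syx1A had stronger TSS peaks than ple. Each is given on the strand of the named gene and, except for Csp, from 100 bp before to 100 bp after the summit. Bases come from the RefSeq Release 6 genome (dm6). For Csp only the longest stretch free of annotated UTR bases is given. It holds 85 bases, with 116 left out, and starts past the summit at 22266664, which is therefore not shown. Capitals mark every copy, on either strand, of the E-box CAGGTG, its extension CAACAGGTG, the related E-box CAGCTG and the shorter motif GCAACA. Minus-strand genes here are Rop, ple and Ddc. The windows are chr3L:22266680-22266764 (Csp), chr3L:4139228-4139428 (Rop), chr3L:6719735-6719935 (ple), chr2L:2404471-2404671 (VGlut), chr3R:18719848-18720048 (ChAT) and chr2L:19118189-19118389 (Ddc).
Csp: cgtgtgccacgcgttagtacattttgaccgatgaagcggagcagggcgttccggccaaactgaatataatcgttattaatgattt
Rop: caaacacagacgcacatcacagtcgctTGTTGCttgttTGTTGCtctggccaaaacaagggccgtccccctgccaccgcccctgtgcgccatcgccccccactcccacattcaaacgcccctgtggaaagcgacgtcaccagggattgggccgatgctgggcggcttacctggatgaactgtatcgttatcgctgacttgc
ple: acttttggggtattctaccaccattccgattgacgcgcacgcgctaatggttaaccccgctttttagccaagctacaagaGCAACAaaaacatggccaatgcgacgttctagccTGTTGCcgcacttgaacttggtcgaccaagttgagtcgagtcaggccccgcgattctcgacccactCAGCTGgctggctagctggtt
VGlut: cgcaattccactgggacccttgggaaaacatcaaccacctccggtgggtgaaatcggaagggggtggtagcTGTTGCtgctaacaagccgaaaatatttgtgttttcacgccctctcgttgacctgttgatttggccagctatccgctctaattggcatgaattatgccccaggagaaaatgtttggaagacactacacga
ChAT: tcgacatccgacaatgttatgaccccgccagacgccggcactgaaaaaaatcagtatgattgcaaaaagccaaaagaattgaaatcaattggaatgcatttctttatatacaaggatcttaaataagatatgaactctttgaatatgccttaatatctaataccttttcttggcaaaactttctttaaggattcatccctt
Ddc: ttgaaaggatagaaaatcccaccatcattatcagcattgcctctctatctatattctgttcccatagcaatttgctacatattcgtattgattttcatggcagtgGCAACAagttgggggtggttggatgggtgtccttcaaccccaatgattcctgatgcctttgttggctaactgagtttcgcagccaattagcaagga

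The ple window held GCAACA copies at both sides of the summit, which began 20 bp before it and 14 bp after it on opposite strands, and a CAGCTG at 80 bp. The Rop window held GCAACA copies that began 73 and 62 bp before the summit, both on the opposite strand. VGlut and Ddc had 1 copy each, 29 bp before and 5 bp after the summit, and the ChAT and Csp sequences shown had none of the 4 motifs. The bases left out at Csp held 1 copy each of CAGCTG and GCAACA, which are in the counts that follow. Over all 22 distinct summits at members, within 1000 bp of a TSS or in a gene body, 7 held GCAACA within 100 bp (31.8%, 95% Wilson interval 16.4 to 52.7), against 31.1% of all optimal summits. CAGCTG was at 5 member summits (22.7%, 10.1 to 43.4), against 12.6%. The Snail-family E-box CAGGTG was at 1 (4.55%, 0.807 to 21.8), against 7.68%, and CAACAGGTG, which contains it, was at 0 of 22 (up to 14.9%), against 1.75%. The single CAGGTG, on the opposite strand at chr3L:22267750-22267775 in the coding sequence of Csp, began 72 bp from a weak second summit of that gene and is shown with its flanks.
Csp copy: aggatgagcgCACCTGgcatggacaa
For each of the 4 motifs the share at all summits lay inside the interval of the share at members. The intervals cover counting error only.

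Of the 36 members, 13 were bound (36.1%, Wilson interval 22.5 to 52.4), against 25.6% of all protein-coding genes. Synaptic genes are long, with a median of 9.14 kb against 2.17 kb over all coding genes, and genes with more TSSs were bound more often (19.3%, 36.4% and 58.3% of other genes with 1, 2 and at least 3). Among other genes matched on length (10 bins of equal gene number) and on having 1, 2 or at least 3 TSSs, 42.4% were bound, which would be 15.3 of 36. With the full optimal list the members were therefore bound more often than the average gene and at a share below that of like genes. The interval on the members' share holds both values. The order of members and the average gene depended on the peak cut. With only the 3203 strongest optimal peaks, 13.9% of members were bound, against 16.2% of all coding genes and 27.2% of like genes. In single replicates the order of members and like genes was not stable. With the 6407 best peaks of replicate 3 alone, 17 members were bound (47.2%) against 41% of like genes, and with those of replicate 4 alone 11 were (30.6%) against 44.7%. No difference between members and other genes is read from these counts.

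**Figure D1:**
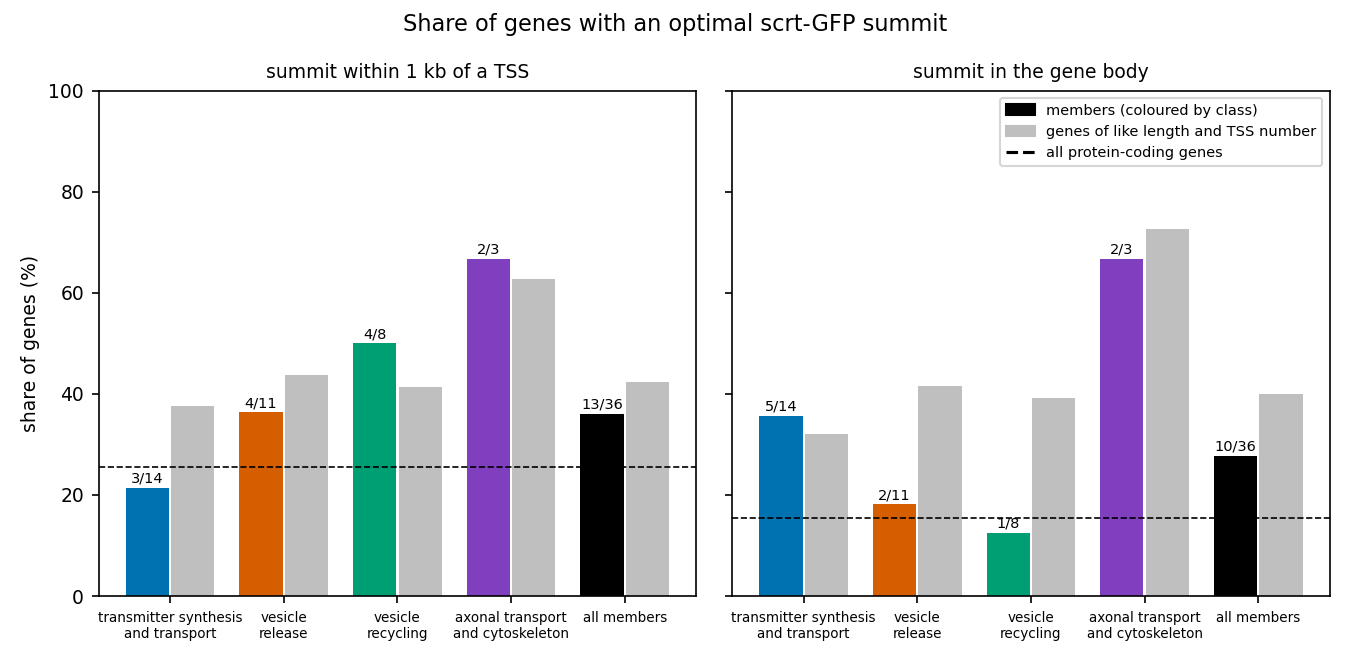
Share of genes (%) with an optimal summit within 1 kb of a TSS (left) and in the gene body (right). Coloured bars are the classes of members and black bars all members, each with counts. Grey bars are genes of like length and TSS number, and the dashed line is the share of all protein-coding genes (25.6% and 15.4%). Transmitter genes had 3 of 14 bound at a TSS and 5 of 14 with a summit in the body. Release genes had 4 of 11 and 2 of 11, and recycling genes 4 of 8 and 1 of 8.

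Transmitter synthesis and transport genes were bound at the TSS in 3 of 14 cases (21.4%, 7.57 to 47.6), against 37.6% of like genes. Vesicle release and recycling genes were bound in 8 of 19 (42.1%, 23.1 to 63.7), against 42.8%. These 8 were 4 of 11 release genes (like genes 43.8%) and 4 of 8 recycling genes (like genes 41.4%). Of the 3 genes for axonal transport and the neuronal cytoskeleton, unc-104 and futsch were bound and Appl was not, against 62.8% of like genes. In the gene body the order of the classes turned round. A summit lay in the body of 5 of 14 transmitter genes (35.7%, like genes 32.1%) and of 3 of 19 release and recycling genes (15.8%, like genes 40.5%), against 15.4% of all coding genes. Summits in the body and over 1000 bp from every TSS of the gene were found in 5 transmitter genes, in 0 of 19 release and recycling genes and in unc-104. The corresponding shares were 35.7% and 0%, against 22.0% and 27.9% of like genes and 7.96% of all coding genes. In the list of other genes of the same pathways, described below, a body summit lay in 5 of 13 transmitter genes and 8 of 20 vesicle genes. That list thus did not show the order seen among the members. The difference between the classes was not tested, since genes of a hand-made list are not replicates.

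Member peaks were of middling strength. Over all 22 member summits, at a TSS or in a gene body, the median signal was 321, against 333 over all optimal peaks, and 10 of 22 were among the 3203 strongest. At the TSS alone the values were lower. The highest signal at a bound member's TSS, in the authors' own units, had a median of 269 over the 13 members and ran from 217 to 824, against a median of 423 over the 3570 bound genes. Of the bound members 5 (38.5%) had a TSS summit among the 3203 strongest optimal peaks, against 63.2% of all bound genes, and 0 of 13 had one of signal over 1000, against 17.8%. The best-ranked of the 22 summits was the intronic one of unc-104, at 479 of 6407, and the weakest was the second Csp summit, at 6355. Of the 22, 14 lay within 1000 bp of a member's TSS, 8 upstream and 6 downstream of it, at a median distance of 153 bp. The other 8 were in gene bodies, in introns except for one at the start of a non-coding RNA inside ChAT.

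**Figure D2:**
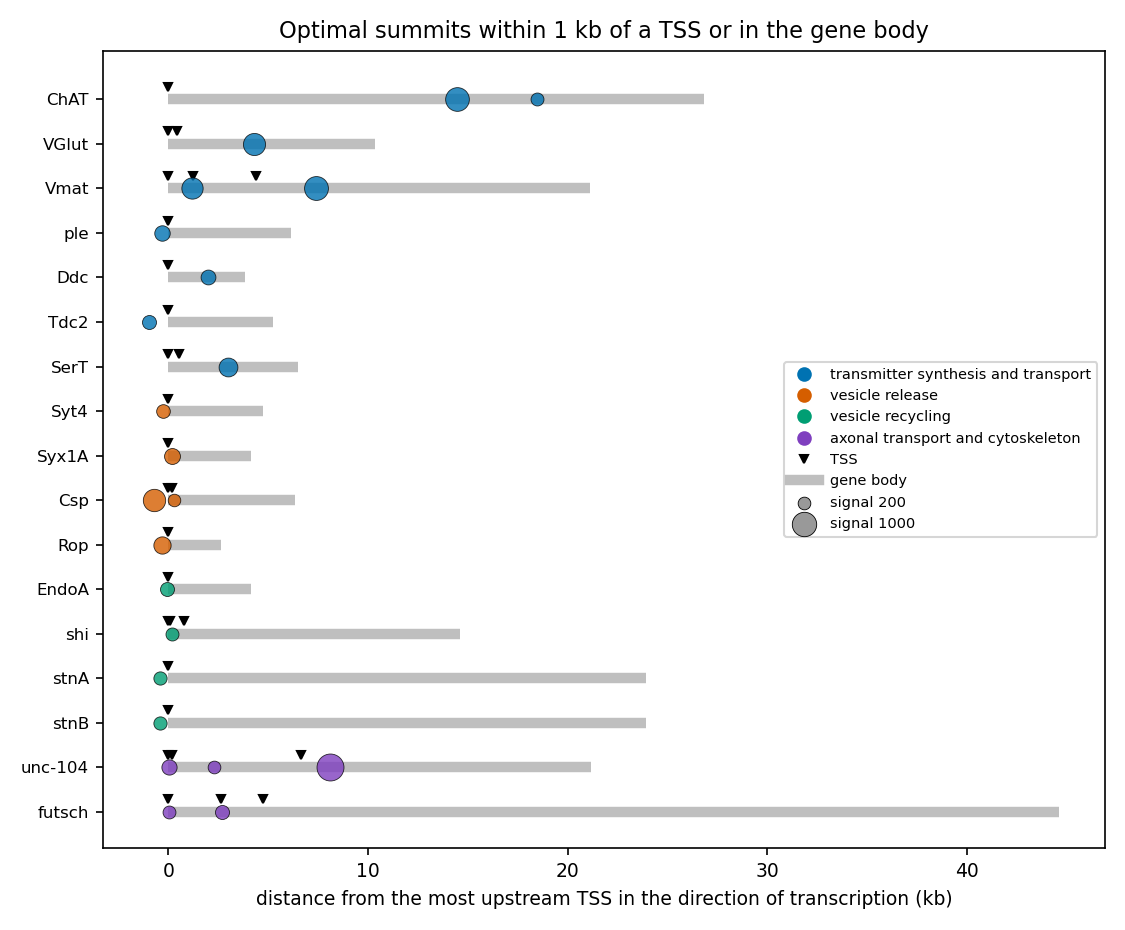
Optimal summits at the 17 members that had any, drawn along each gene from its most upstream TSS in the direction of transcription (kb); circle area grows with peak signal, triangles are TSSs and grey bars are gene bodies. Circles of ChAT, VGlut, Ddc and SerT lie inside the gene, whereas those of release and recycling genes sit at its start.

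All 3 bound genes of the transmitter class, Vmat, ple and Tdc2, act on monoamines. Of the genes like each monoamine member, 23.7% (Ddc and Tdc1) to 68.6% (Vmat) were bound. No difference from like genes is read from this. Vmat (FBgn0260964; 2R, 13513132 to 13534251, minus strand), the vesicular monoamine transporter that loads dopamine, serotonin and octopamine, had a summit 92 bp upstream of the middle of its 3 TSSs with a signal of 738.7, rank 1081 of 6407. In replicates 3 and 4 it stood at ranks 968 and 1205. A stronger summit of 953.9, rank 713, lay in an intron 3018 bp downstream of the last TSS, and ranked 588 and 1004 in replicates 3 and 4. Vmat thus had both a promoter and an intronic peak, and with the most upstream TSS alone it would not count as bound. The intronic summit was nearer to the TSS of CG13332, at 1480 bp, than to any TSS of Vmat.

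The enzyme gene ple (FBgn0005626; 3L, 6713356 to 6719525, minus strand), for tyrosine hydroxylase, the rate-limiting step of dopamine synthesis, had a summit 310 bp upstream of its TSS. Its signal was 345.4, rank 3057, with ranks of 2467 in replicate 3 and 4635 in replicate 4. The nearest other coding TSS was 12250 bp away, so ple had the nearest coding start, although distance alone does not assign a peak to a gene. Tdc2 (FBgn0050446; 2R, 6684745 to 6689974, minus strand), the neuronal tyrosine decarboxylase, was the member nearest to the limit from inside. Its summit lay 963 bp upstream in an intron of Rpp25, with a signal of 267.0, rank 4283, and ranks of 3666 and 5760 in replicates 3 and 4. Tdc1, its non-neuronal neighbour, had the same summit as its nearest, 10546 bp away.

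Ddc (FBgn0000422; 2L, 19116483 to 19120306, minus strand), the dopa decarboxylase shared by dopamine and serotonin synthesis, was the member nearest to the limit from outside. A summit of 494.7, rank 1887, lay 1163 bp upstream of its TSS, and the summit shown above, of 309.9 and rank 3549, lay in an intron 2017 bp downstream. The intronic peak ranked 2957 in replicate 3 and 4982 in replicate 4. The serotonin transporter gene SerT (FBgn0010414) had 1 summit, in an intron 2491 bp from its nearer TSS, with a signal of 556.0, rank 1642, and ranks of 1366 and 2127 in replicates 3 and 4. The dopamine transporter gene DAT had its nearest summit 5950 bp away, at the promoter of RpS15, and Tbh, whose product makes octopamine from tyramine, had its nearest 23136 bp away. Monoamine genes with no TSS summit were thus unlike each other, from Ddc just past the limit to Tbh with no optimal summit nearby.

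None of the genes for fast transmitters (acetylcholine, glutamate and GABA) was bound at the TSS. Of the genes like each of them, 21.2% (VGAT) to 68.6% (Gad1) were bound, and no difference is read from so few genes. ChAT (FBgn0000303; 3R, 18705501 to 18732344) and the vesicular acetylcholine transporter gene VAChT, which is nested in it, have the same TSS, so they are 1 locus in this count. ChAT held a summit of 941.1, rank 731, 14447 bp from that TSS, which ranked 889 in replicate 3 and 621 in replicate 4. It lay 325 bp from the TSS of a non-coding RNA gene, lncRNA:CR46265, inside ChAT and past the end of VAChT. A second ChAT summit of 213.2, rank 5708, ranked 3747 in replicate 3 but 9396 in replicate 4. The coding TSS nearest to both ChAT summits was that of CG34283, 2642 bp from the strong one and 1360 bp from the second. VGlut (FBgn0031424; 2L, 2400295 to 2410662), the vesicular glutamate transporter, had an intronic summit of 805.9, rank 937, 3820 bp past its nearer TSS, with ranks of 723 and 1429 in replicates 3 and 4. No other coding TSS lay within 10751 bp of it. The choline transporter gene ChT had its nearest summit at 2845 bp, 59 bp from the TSS of CG7706. Gad1 and VGAT, which make and load GABA, had their nearest summits at 13737 and 13718 bp, so GABA genes were free of optimal summits at the TSS and in the body.

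Among the release genes, Csp, Syx1A, Rop and Syt4 were bound, and for Csp, Rop and Syt4 a divergent neighbour starts nearer to a summit than the member does. Csp (FBgn0004179; 3L, 22267382 to 22273745), the cysteine string protein chaperone of synaptic vesicles, had the strongest TSS peak of all members, with a signal of 823.9, rank 902, and ranks of 972 and 890 in replicates 3 and 4. That summit lay 718 bp upstream of Csp and 15 bp from the TSS of CG11523, inside that gene, which runs the other way. A second summit, 120 bp downstream of the second Csp TSS, had a signal of 194.3, rank 6355, close to the lowest of the list (193), and replicate ranks of 5608 (3) and 5786 (4). The strong peak at Csp was therefore at its neighbour's start.

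Syx1A (FBgn0013343; 3R, 24101600 to 24105763, minus strand), the syntaxin of the plasma membrane, had a summit 186 bp downstream of its TSS with a signal of 370.0, rank 2749. It was one of the few member peaks that ranked better in replicate 4 (2407) than in replicate 3 (3440). The Syx1A summit also lies inside another coding gene, eIF4EHP, although the nearest coding start was that of Syx1A. Rop (FBgn0004574; 3L, 4136359 to 4138996, minus strand), the Sec1 protein that binds syntaxin, had a summit 332 bp upstream with a signal of 454.1, rank 2104, and ranks of 1813 and 2361. The divergent gene Ras64B starts 252 bp from the same summit, which lies inside Ras64B. Syt4 (FBgn0028400; 3R, 7266065 to 7270809), a synaptotagmin, had a summit 241 bp upstream with a signal of 248.8, rank 4690, and ranks of 3739 and 7530, and the divergent gene Gld starts 121 bp from it, so that this summit lay between both genes. For Csp (strong peak), Rop and Syt4 the summit was thus nearer to the start of another coding gene, and the peak lists do not assign a peak to a gene.

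The release genes nSyb (synaptobrevin, the vesicle SNARE), Syt1 (the main calcium sensor of release), Syn (synapsin), cpx, Snap25, Syt7 and Rab3 were not bound and held no summit in the gene body. Their nearest optimal summits lay at 7584 bp (nSyb), 25454 bp (Syt1), 20037 bp (Syn), 24337 bp (cpx) and 5952 bp (Rab3), and each of these was within 226 bp of the TSS of another coding gene. For cpx that gene was Syt14, with a signal of 1556.7, rank 315. Of the 11 release genes 5 (45.5%) had no optimal summit within 20 kb, against 19.2% of all coding genes, and Syn passed this limit narrowly. The share was 19.4% over all members, 7.14% for transmitter genes and 12.5% for recycling genes. For Snap25 and Syt7 the whole neighbourhood held few peaks. Snap25 (3L, 24074180 to 24299205) lies beyond the last optimal summit of its arm, 978792 bp away, in a stretch with 35 coding genes and 4 of the 6616 pooled peaks of that arm. Syt7, 98065 bp from a summit, lies on chromosome 4, which had 18 optimal summits and 12 of 80 coding genes bound (15%).

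**Figure D3:**
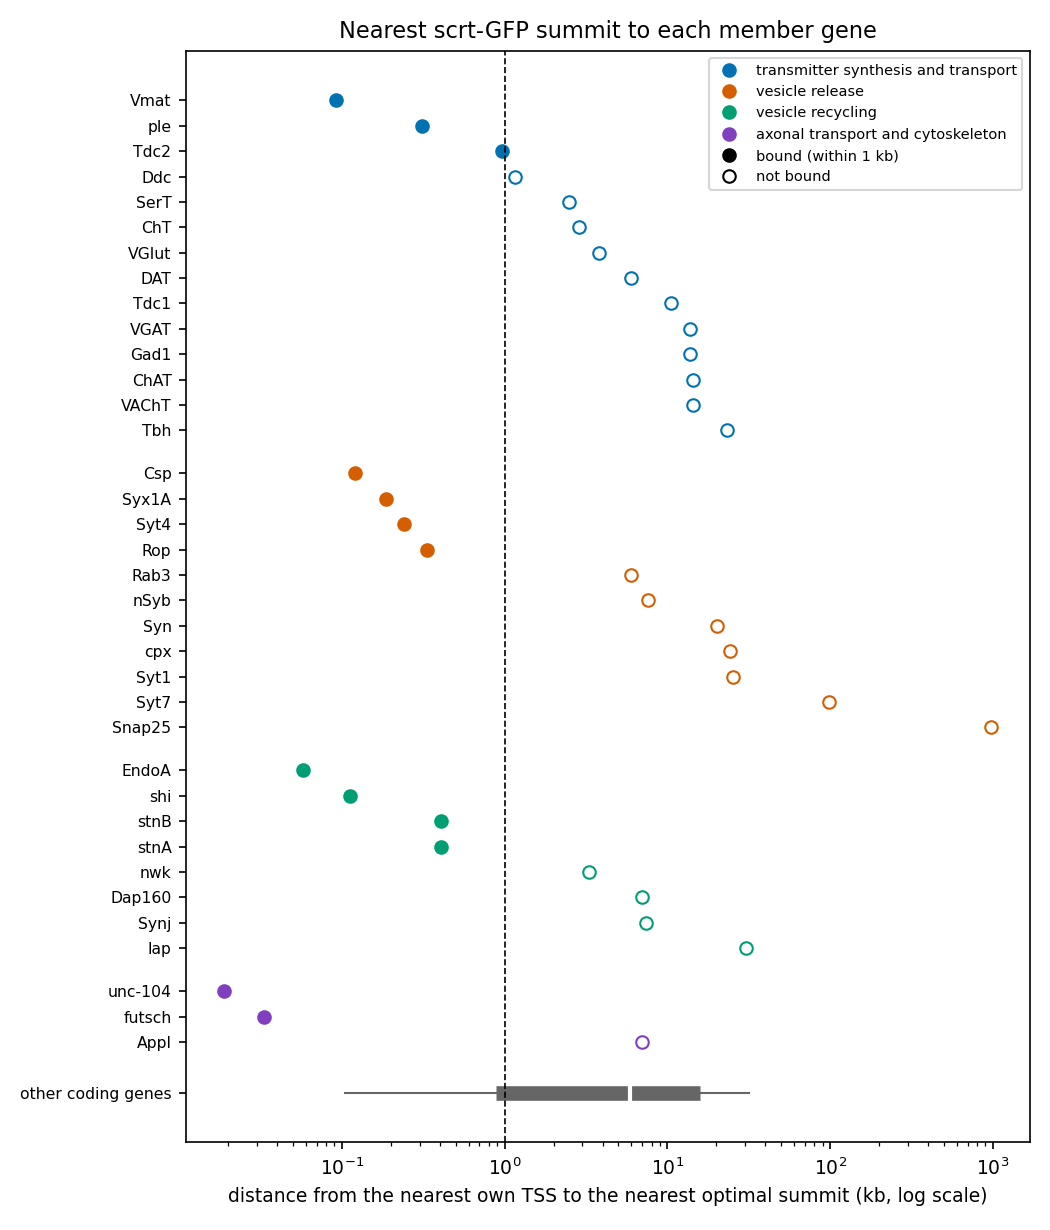
Distance (kb, log scale) from the nearest TSS of each member to the nearest optimal summit, by class; filled circles are bound members and the dashed line is 1 kb. The bar at the bottom gives the interquartile range of the other 13909 coding genes with their median of 5.91 kb, and the line their 10th to 90th percentiles (0.104 to 31.7 kb); the unbound release genes lie at 5.952 kb (Rab3) and farther.

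Of the recycling genes, EndoA, shi, stnA and stnB were bound, all by weak peaks. EndoA (FBgn0038659; 3R, 18906609 to 18910755), endophilin A, which bends membrane at endocytic sites, had a summit 58 bp upstream with a signal of 264.7, rank 4338, and ranks of 5140 and 4360 in replicates 3 and 4. The dynamin gene shi (FBgn0003392; X, 15892116 to 15906716), whose product cuts vesicles from the membrane, had a summit 112 bp past a TSS with a signal of 216.5, rank 5582, and ranks of 4773 and 6759. The stonin adaptors stnA and stnB are read from 1 dicistronic transcription unit (X, 22980722 to 23004648, minus strand), so their summit, 409 bp upstream with a signal of 227.7 and rank 5246, is 1 observation, which leaves 12 bound loci among 34. Its replicate ranks were 4755 (replicate 3) and 6044 (replicate 4). Unbound were Synj, Dap160 (intersectin), nwk (an F-BAR protein) and lap (the AP180 clathrin adaptor), with nearest summits at 7388, 6960, 3315 and 30404 bp. The one near nwk was among the strongest of the list (3100.1, rank 71) and lay 15 bp from the TSS of Dhpr.

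The kinesin gene unc-104 (FBgn0267002; 2R, 16751503 to 16772671, minus strand), the motor that carries vesicle precursors along axons, held 3 summits. One lay 19 bp past its first TSS with a signal of 331.4, rank 3228, and ranked 2757 in replicate 3 and 4872 in replicate 4. The strongest of any member, 1245.7 at rank 479, lay in an intron 1454 bp past the last TSS and ranked 423 and 514. The third had a signal of 201.8, rank 6061. The same last TSS is also the start of CG42392. The microtubule protein gene futsch (FBgn0259108; X, 1409069 to 1453686) had summits 33 bp past its first TSS (signal 210.6, rank 5789) and 41 bp past its second (268.6, rank 4253). The first ranked 6070 and 6240 in replicates 3 and 4, and the second 4578 and 4717. Appl, the amyloid precursor protein homologue, had no summit at a TSS or in its 48.5 kb body, and its nearest, 7023 bp upstream, was the peak of 2224.1 at the promoter of elav, a neuronal RNA-binding protein gene. Both bound genes of this class thus had peaks at the start, and the motor gene alone had strong intronic binding.

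All 22 member summits overlapped a peak of each replicate, and 22 were among the 6407 best of replicate 3 and 19 among those of replicate 4. Of all optimal peaks 98% and 99.5% overlapped a peak of replicates 3 and 4, and 88% and 89% were among the 6407 best, so the member counts were near the background. The exceptions were the second ChAT summit, Syt4 and shi, which fell below that rank in replicate 4. Of the 22, 18 ranked better in replicate 3 and 4 in replicate 4, whereas 52.2% of all optimal peaks ranked better in replicate 3. The 4 were the strong ChAT summit, the strong Csp summit, Syx1A and EndoA. Since the optimal list was made from these replicates, this is a description of the peaks and not a separate measure of agreement.

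**Figure D4:**
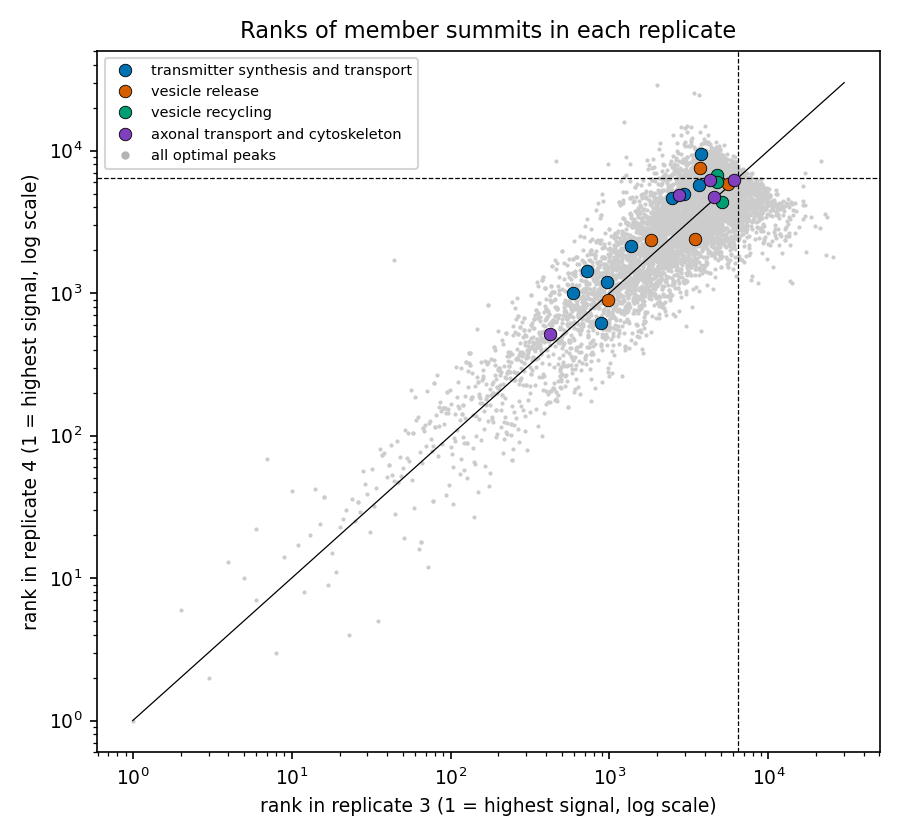
Rank of each member summit in replicate 3 (x axis) and replicate 4 (y axis), both on log scales with 1 the highest signal, over all optimal peaks (grey); dashed lines are at rank 6407 and the diagonal marks equal ranks. Of the 22 member summits, 18 lie above the diagonal, with the better rank in replicate 3.

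Many unbound members had a peak at the TSS below the IDR threshold. The pooled list, which keeps 30000 peaks and includes background, had a summit within 1000 bp of a TSS for 28 of 36 members (77.8%), against 67.5% of like genes and 45.8% of all coding genes. Of the 23 unbound members 15 had one, against 49.7% of unbound like genes and 27.2% of all unbound coding genes. The difference from these genes was not tested. Synj, at pooled rank 6596 with a signal of 188.6, and Syn, at 6644 with 187.5, lay just past the last optimal peak at rank 6407. Both were among the 6407 best peaks of replicate 3 (5215 and 4791) and outside those of replicate 4 (10346 and 9832). The same was seen for cpx (pooled rank 7161; 6306 in replicate 3 and 9421 in replicate 4) and Tbh (8363; 5405 and 12859). The rest were weaker, down to VGlut at rank 25604. VGAT, Tdc1, SerT, nSyb, Syt7, Snap25, Dap160 and lap had no pooled summit within 1000 bp of a TSS. Absence from the optimal list is therefore not the same as absence of signal for Synj, Syn, cpx and Tbh.

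Other genes of the same pathways, from a list of 33 drawn up by function with earlier results of these data known, had 15 bound (45.5%), against 38.2% of like genes. On the transmitter side 6 of 13 were bound. Pu, which makes the cofactor of ple, had the strongest peak (3758.3, rank 45, with rank 47 in each replicate), followed by the acetylcholinesterase gene Ace (2019.3, rank 195), the histidine decarboxylase gene Hdc (630.1), the transporter gene prt (516.2), the N-acetyltransferase gene AANAT1, now speck (441.1), and the neuronal tryptophan hydroxylase gene Trhn (389.8). On the vesicle side 9 of 20 were bound. The synaptotagmin genes Sytbeta (2470.2, rank 127), Sytalpha (2114.5, rank 180) and Syt14 (1556.7, rank 315) led, each ranking better in replicate 3 (79, 136 and 224) than in replicate 4 (233, 273 and 526), and Sytbeta held 8 summits in its body. The endosomal GTPase gene Rab5 (1099.3), sky (996.0), Tomosyn (770.5) and Snap29 (557.8) followed, with weak peaks at Amph (219.9) and the clathrin light chain gene Clc (197.8). Of the synaptotagmin genes examined, the 3 with strong peaks were thus outside the members, while Syt1, Syt7 and Syt12 were unbound and Syt4 was weak.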

How the data were processed

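ChIP-seq for scrt was carried out on scrt-GFP embryos with sonicated chromatin of 200 to 800 bp, per the labels. The authors deposited narrowPeak lists on dm6. According to the deposited file listing, peaks of replicate 3, replicate 4 and their pool (30000 each) were called against control alignments, and the 6407 optimal peaks, which are the pooled peaks of highest signal, were kept by IDR. No source used here names the caller, aligner, IDR threshold or read depth. The deposited signal is the authors' enrichment value, comparable only within a list, so lists were compared by rank. The deposited −log10 q-value reaches a ceiling and was not used. Summits were column 2 plus column 10.

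Genes and TSSs came from Ensembl release 115, whose coordinates matched RefSeq for 36 of 36 members, and sequence from the RefSeq Release 6 genome, the build of the files (0 peaks ran past a chromosome end). Like genes share a length decile and TSS number, members left out. Promoter means at most 500 bp from any annotated TSS. Replicate ranks are those of the strongest overlapping peak. Members, classes and lists were chosen with earlier results of these data known, so counts are described and no list was tested. All bound members, members with a body summit, and unbound members were named; related genes were named only if bound, except Syt12, named after its value was seen. On simulated summits at 200 of 13945 genes, calls equalled direct counting for 800 of 800 planted summits. Alternatives changed the peak list, TSS window, TSS set, overlap, assignment, matching and sequence window. Python 3.11.15, numpy 2.4.6, pandas 2.3.3, scipy 1.17.1 and matplotlib 3.10.9 were used.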

Additional observations from a re-analysis of the deposited data

How the results depend on the processing

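No paired analysis was possible because the study has a single group. Of 59 counts and shares recomputed, 50 stayed within a set limit and 9 did not. Counts could move by at most 1.5 times, and motif shares had to stay within their interval. Shares of like genes could move by at most the distance from the middle to either end of the interval on the members' bound share. With the 3203 strongest optimal peaks, 5 members were bound (3 release and recycling genes, 0 of the axonal and cytoskeleton class). This was 13.9% of members, against 16.2% of all coding genes and 27.2% of like genes, so members then fell below the average gene. In that setting 6 members held 7 summits in the body. Without the 1000 bp around each gene's own TSSs, 6 members held 8 summits in the body. CAGGTG was at 0% of member summits with 50 bp on each side. Of 288 member calls recomputed, 20 changed. Csp, Syx1A and ple were bound under all 8 alternatives, and 18 of the 23 unbound members under none of them. No single peak carried Csp throughout. With the 3203 strongest peaks it kept only the summit of rank 902 near CG11523, and by nearest TSS only that of rank 6355. The other unbound members were Ddc (bound with 2000 bp or by overlap of the interval) and Tbh, Syn, cpx and Synj (bound with replicate 3 alone). Syt4 and shi were not bound with replicate 4 alone. The alternatives for the related genes were chosen after seeing the data and gave 11 to 17 bound. The read depth is unknown, so what it limits was not measured.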
